A study of Mus musculus with 50 samples.

Results

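The genes described here are 55 members of the RAS, NF-kB and IL6-JAK-STAT signalling pathways, taken by name from the deposited variant table of an exome study of mouse plasma cell tumours. A variant was counted for a member when the table named that gene and gave 1 alternate allele, whatever its effect on the protein. By this rule the members held 46 of the 25624 distinct variants of the table and 202 calls. All 55 are protein-coding genes of the RefSeq table of assembly GRCm38.p6, which lists 21900 such genes, and they lie on 18 chromosomes.

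The tumours came from mesenteric lymph nodes of mice of the genotype IL6Myc, a name that joins interleukin 6 and the oncogene Myc, used as a transgenic myeloma model. The labels give 45 such tumours, described as malignant plasma cells, and 5 kidneys of wild-type Balb/c mice. Columns of 44 tumours were analysed. Neither tumour 4 nor any kidney was used here, and inherited variants could not be told from acquired ones. Tumours are numbered in accession order, and their titles fall into 3 series: 4 tumours titled 1199 to 1293, 18 titled 1501 to 1592 and 22 titled 1601 to 1628, with no word in the labels on what sets the series apart. The transgene promoters, the age of the mice and their full strain background are not stated in the labels, and DNA variant calls hold no markers by which the labelled cell type could be checked.

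RAS proteins are membrane switches that pass growth factor signals to the kinases RAF, MEK and ERK, and mutations that hold them in the active state are frequent in human myeloma. NF-kB transcription factors are kept in the cytoplasm by inhibitors and released by receptors such as CD40, and many human myelomas carry lesions that free them from this control. Interleukin 6, a growth factor of plasma cells, acts through its receptor, the shared subunit gp130 and Janus kinases to phosphorylate STAT3.

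Calls were found in 20 of the 55 members (36.4%), against 29.7% of all protein-coding genes. The difference was not tested, as the members were chosen with earlier results of these data known. The members called were Nras, Map2k1, Nf1, Rasa2, Spred1 and Cbl of the RAS pathway, 9 NF-kB genes (Cd40, Traf2, Traf3, Birc3, Ikbkg, Cyld, Nfkbia, Nfkb1 and Rela) and 5 genes of the interleukin 6 pathway (Il6ra, Stat3, Stat5a, Stat5b and Ptpn2). The table also uses an older symbol, Hras1, for the RAS GTPase gene Hras, and lists under it 1 intronic call in tumour 13 at a read share of 20%, 71 bases from the nearest exon. With older symbols counted, as they were for the 29.7%, 21 members (38.2%) had a call. A read share here is the deposited percent of reads with the alternate allele; the table gives no read depth, so the precision of a single read share is unknown.

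No call was listed by name for the other 35 members, and for 34 of them, all but Hras, none was listed under an older symbol. In the RAS pathway these 34 were the kinase genes Braf, Araf, Map2k2 and Mapk3, the receptor gene Fgfr3, the exchange factor gene Sos1, the phosphatase gene Ptpn11, the scaffold gene Shoc2 and the negative regulators Rasa1 and Lztr1. Among NF-kB genes they were the receptor genes Tnfrsf13b, Tnfrsf13c and Tnfrsf17, the ligand gene Ltb, the adaptor genes Myd88 and Tradd, the ubiquitin ligase gene Birc2, the kinase genes Map3k14 and Ikbkb, the inhibitor gene Tnfaip3 and the transcription factor genes Nfkb2 and Relb. In the interleukin 6 pathway they were Il6 itself, the gp130 gene Il6st, the 4 Janus kinase genes Jak1, Jak2, Jak3 and Tyk2, the transcription factor gene Stat6 and the negative regulators Socs3, Cish, Ptpn1, Ptpn6 and Pias3. A count of 0 in 44 tumours allows a share of tumours of up to 6.82% for counting error alone, and genes without variants cannot be told apart from genes without coverage.

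Members without a call had shorter spans, and no test was made of this difference. Their gene spans ran from 1.80 to 122 kb with a median of 18.1 kb, whereas spans of the 20 called members ran from 3.24 to 242 kb with a median of 57.1 kb. Variants of other genes or intergenic sites carried by 2 or more tumours were also counted within 1 Mb of each member. Their median was 24 (0 to 160) around the 9 members with a shared call, 2 (1 to 173) around the 11 with private calls only and 3 (0 to 57) around the 35 without a call. The RAS brake gene Rasa1 and the phosphatase gene Ptpn2 had none. Ptpn1, which encodes a phosphatase acting on Janus kinases, had none of its own although 57 shared variants lay around it on chromosome 2.

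Most member variants were noncoding. Of the 46, 32 (69.6%) were intronic, against 55.7% of all variants in the table. A further 3 lay in a 3' UTR, 2 in a splice region, 3 were synonymous and 6 (13.04%, exact Clopper-Pearson 95% interval 4.94 to 26.3%) carried a protein-altering annotation, against 9.07% of all variants in the table. The interval treats variants as independent, which linked variants with the same carriers are not. All 6 protein-altering variants were annotated as missense, and no stop, frameshift or essential splice site variant was called in a member. The intronic variants lay 12 to 28293 bases from the nearest exon, with 28 of 32 (87.5%) within 200 bases, against 84.4% for all intronic variants. The assay captured exons (50 Mb in all, per the labels). Insertions or deletions made up 13 of the 46 member variants, against 20.8% of all variants.

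Private variants, those called in 1 tumour, numbered 20 of the 46 (43.5%), against 49.6% of all variants. Of the other 26, 21 were carried by 2 to 5 tumours, 4 by 6 to 22 and 1 by 39. The 3 synonymous variants were all shared, and 5 of the 6 protein-altering ones were private. Protein-altering calls thus made up 5 of 20 private member variants (25%, exact 95% interval 8.66 to 49.1%) and 1 of 26 shared ones (3.85%, 0.0973 to 19.6%). The corresponding figures over the whole table were 11.2% and 6.97%. The intervals for members treat variants as independent, which linked shared variants with the same carriers are not.

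**Figure D1:**
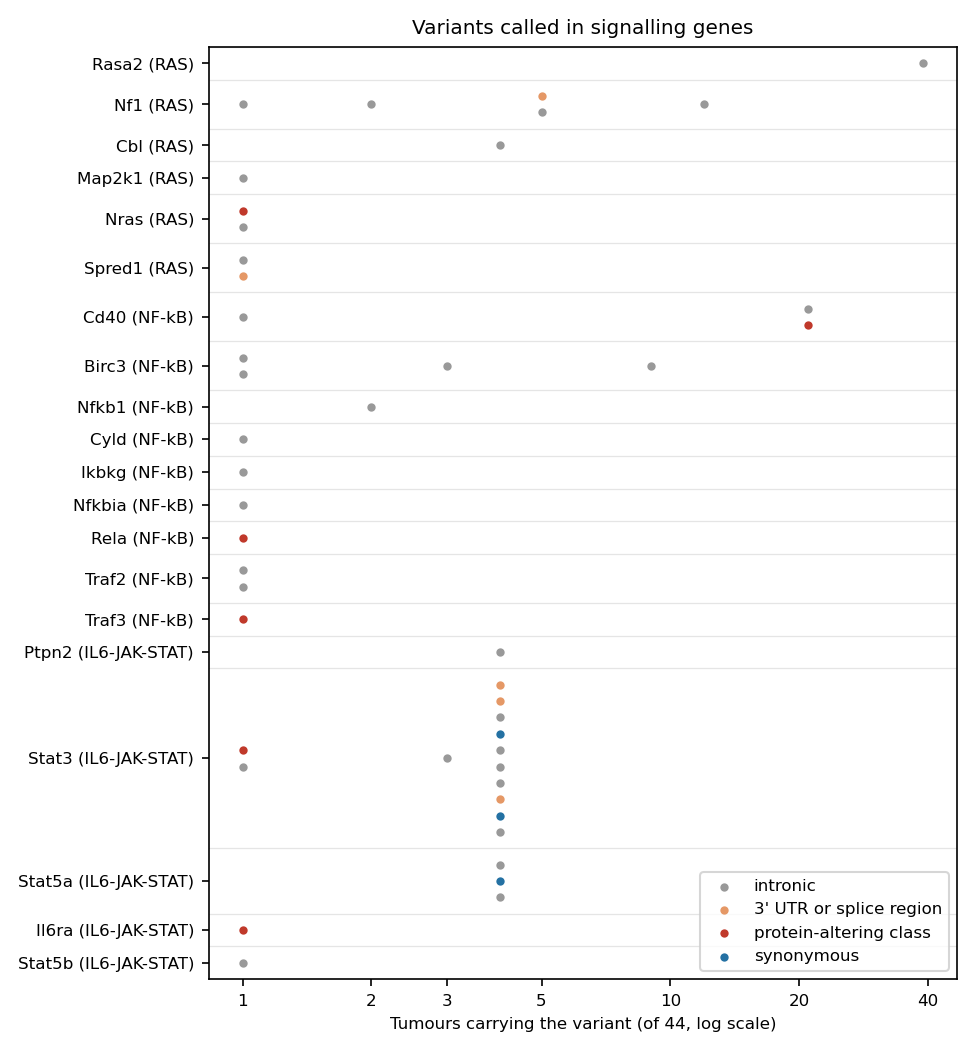
Each point is 1 of the 46 variants of the 20 signalling genes with a call, placed by the number of tumours that carry it (log scale) and coloured by annotated effect. Protein-altering annotations sit at 1 tumour apart from Cd40 at 21, and the stacked points of Stat3 and Stat5a at 4 tumours include the 3 synonymous variants.

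By gene, 6 of 55 members (10.9%) had a protein-altering call, against 7.78% of all protein-coding genes. A private one was found in 5 (9.09%), against 5.46%. The members were chosen with earlier results of these data known, so these shares do not test for an excess. With a read share of at least 20% required, 2 members (3.64%) were left, Stat3 and Cd40, against 4.03% of all genes. The Cd40 variant has no written protein change. Where one was required, at any read share, 5 members had a protein-altering call. A synonymous call was found in 2 members (3.64%), Stat3 and Stat5a, against 5.57% of all genes. Private missense variants of members were found in 5 of 44 tumours (11.4%, exact 95% interval 3.79 to 24.6%), tumours 5, 10, 32, 39 and 41, each of which had 1.

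The RAS GTPase gene Nras carried p.Gln61Lys in tumour 32, a C>A change at position 103060270 of chromosome 3 (mm10). The glutamine replaced takes part in GTP hydrolysis, and its substitution is among the best known activating changes of RAS proteins in human cancer. The read share was 17.65%, below the median of 47.83% over the shared SNVs of the same tumour. Among the 136 other private SNVs of that tumour outside the antibody loci, 102 had a lower and 34 a higher read share, and their median was 12.5%. The second Nras variant, in tumour 21, was a 1-base intronic insertion 166 bases from the exon, at a read share of 28.57%.

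Stat3, which encodes the main transcription factor downstream of interleukin 6, carried p.Lys658Arg in tumour 39 at position 100893202 of chromosome 11. The residue lies in the SH2 domain, through which phosphorylated STAT3 dimerises and in which activating changes of human lymphoid cancers gather. Its read share of 30.37% was the highest of the 5 private missense variants. In tumour 39 the shared SNVs had a median of 47.5% and the 85 other private SNVs a median of 20.59%, with 63 below and 22 above the Stat3 value.

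Il6ra, the gene of the ligand-binding receptor subunit of interleukin 6, carried p.Val264Leu in tumour 10 at position 89886550 of chromosome 3, with a read share of 12.5%. Of 268 other private SNVs in that tumour, 86 had a lower share and 170 a higher one. The change is a C>A substitution by its pyrimidine base, and 34.3% of the other private SNVs of tumour 10 were of that class. Over the 44 tumours that class made up 5.26 to 39.7% of private SNVs, with a median of 13.3%. In tumour 32, which carried the Nras change of the same class, it made up 19.9%. Whether this share bears on the Il6ra and Nras calls was not tested.

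NF-kB genes held 2 private missense variants. Traf3, whose product marks the NF-kB inducing kinase for degradation and is often lost in human myeloma, carried p.Arg162Gln in tumour 41 at position 111243456 of chromosome 12. Its read share of 10.71% lay near the middle of that tumour's private SNVs, of which 43 were lower and 47 higher. Rela, which encodes the p65 subunit of NF-kB, carried p.Arg171Thr in tumour 5 at position 5640387 of chromosome 19. The residue lies in the Rel homology domain, which binds DNA. Its read share of 5.45% was the lowest of any call in a member, and only 17 of 744 other private SNVs of tumour 5 were lower, against a median there of 44.44%.

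As a group, the 5 private missense variants had read shares of 5.45 to 30.37%, with a median of 12.5%. The 1244 private missense SNVs of the table had a median of 10.71%, with quartiles of 5.45 and 29.41%, and 67.5% of them lay under 20%, as did 4 of the 5 here. The 9 private noncoding SNVs of members ran from 9.52 to 69.23% with a median of 37.21%, and the 8376 private SNVs of the table other than missense, outside the antibody loci, had a median of 20%. No test was made between these sets, and their medians were not adjusted for tumour. Among the 9, the Traf2, Stat3 and Spred1 SNVs at 54.55%, 40.74% and 37.21% came from tumour 2. The other private SNVs of tumour 2 outside the antibody loci had a median of 45.45%. The rest of the 9, from other tumours, ran from 9.52 to 69.23%. Over all 14 private member SNVs the median was 15.97%, against 18.47% for the 9620 private SNVs outside the antibody loci. The member median was 24.01% with a minimum read share of 10% and 25.825% with indels included, so its place against 18.47% depends on these choices.

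**Figure D2:**
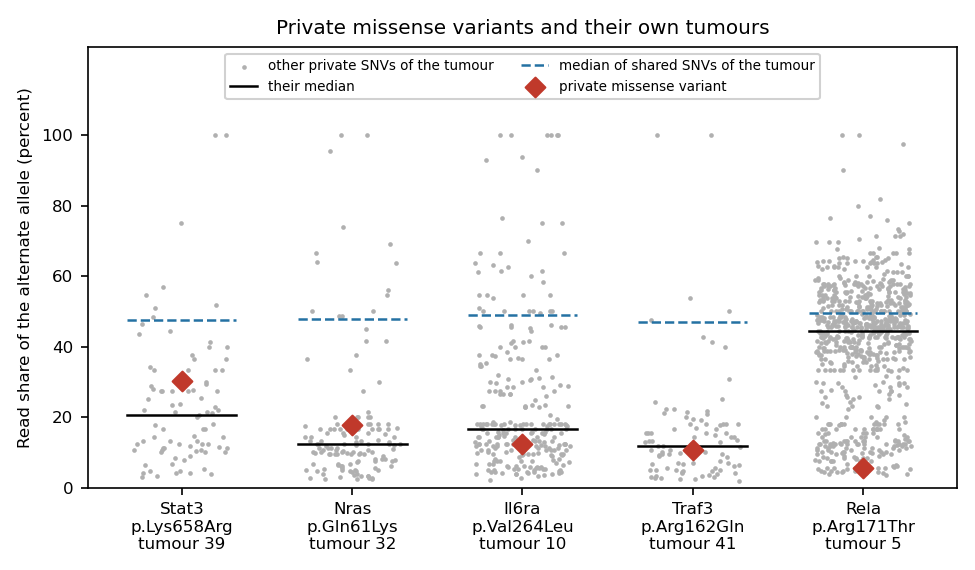
Read share of the alternate allele, in percent, for each private missense variant of a signalling gene (red diamond) and for the other private SNVs of the same tumour outside the antibody loci (grey points, median as a black line; the dashed line is the median of the tumour's shared SNVs). All 5 diamonds lie below the dashed line, and that of Rela at 5.45% lies near the bottom of its tumour's points.

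Private noncoding calls were spread over 12 members and 11 tumours. Tumour 2, which had 1703 private calls in all, held 4 of the 15: a 5-base deletion in Traf2 at 66.67%, a Traf2 SNV at 54.55%, a Spred1 SNV at 37.21% and a Stat3 SNV at 40.74%. Traf2 encodes an adaptor of tumour necrosis factor receptors, and Spred1 encodes a protein that recruits neurofibromin to RAS. The inhibitor gene Nfkbia had a C>A change at 14.29% in tumour 16, where 39.5% of the other private SNVs were of that class. Low shares were also seen for Map2k1, the gene of the kinase MEK1 (9.52% in tumour 3), for the deubiquitinase gene Cyld (10.53% in tumour 1) and for the 3' UTR of Spred1 (11.11% in tumour 35). A Cd40 intronic SNV in tumour 22 stood at 69.23%, the highest of the private calls, and a deletion in an intron of Ikbkg, the gene of the regulatory subunit of the IkB kinase, at 66.67% in tumour 19. The table gives that deletion to G6pdx as well, and its nearest exon, 144 bases away, belongs to that gene.

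The shared variant carried by the most tumours was an intronic SNV of Rasa2, a gene for a GTPase-activating protein that switches RAS off. It was called in 39 of 44 tumours (88.6%), at position 96577339 of chromosome 9, 134 bases from the nearest exon. Its read shares were uneven: the lowest, 21.43%, was in tumour 19, the highest, 85.71%, in tumour 41, and the median was 44.44%. The SD over carriers was 14.7 percentage points, larger than for 96.0% of the 1308 SNVs carried by over 22 tumours, whose median SD was 8.72. Chromosome 9 itself varied, as the median over its shared SNVs ran from 39.58 to 63.395% between carriers. The Rasa2 value lay below that median in 24 carriers and above it in 15. Within 1 Mb of the site lay 4 other shared variants. Counted around whole genes, the median was 24 for the 9 members with a shared call and 3.5 for all 20 called members. The nearest variant in over 22 tumours lay 5.62 Mb away, in Ephb1, with 32 carriers. The highest similarity of carriers (Jaccard index 0.975 over 44 tumours) was shared by 9 variants in other genes, among them, by alphabetical order, those in Clasp1, Ddx18 and Dsel on chromosome 1, each in 40 tumours with 39 in common.

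The receptor gene Cd40 carried 2 variants in exactly the same 21 tumours, 6716 bases apart on chromosome 2. The intronic one, at 165062975, had read shares of 28.13 to 66.67% with a median of 50.98%. The exonic one, at 165069691, had read shares of 35.53 to 53.52% with a median of 47.95%. It is annotated as missense on a non-coding transcript and has no written protein change, so its effect on the CD40 protein is not settled. Both lie in a run of 43 variants with identical carriers between 163825291 and 165687677, a stretch in which 74 variants were shared. Of the 43, 40 lie in other named genes and tie in their carriers, and the nearest to Cd40 were in Snx21, Ube2c and Wfdc3, 276401 to 325536 bases away. The lowest intronic value was in tumour 32, where the exonic variant stood at 49.41%. The median over all shared SNVs of chromosome 2 in the carriers lay between 47.37 and 48.94%. Among the 5 tumours with a private missense variant, 2 (tumours 10 and 32) were Cd40 carriers.

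Stat3 and Stat5a, neighbours on chromosome 11, held the largest group of member variants. The same 4 tumours, 1, 2, 7 and 8, carried 10 variants of Stat3 and 3 of Stat5a, and an 11th shared Stat3 variant was called in 3 of them. Per tumour the 13 variants had median read shares of 46.15%, 51.02%, 48.00% and 53.13% in tumours 1, 2, 7 and 8, and the single values ran from 38.89 to 67.65%. The synonymous Stat3 variants at Phe683 and Ile104 and the synonymous Stat5a variant at Lys527 belonged to this group, as did 2 Stat3 variants in the 3' UTR and a 2-base insertion in a splice region. The Phe683 variant had read shares of 46.15%, 50.79%, 47.62% and 56.52% in the 4 tumours. Neither gene had a protein-altering variant in the group.

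The run of variants with exactly these 4 carriers extended well past the STAT genes. It numbered 249, all on chromosome 11 between 97030352 and 101070994, among 353 shared variants in that stretch, and 19 of the 249 were protein-altering in other genes. Stat5b, which lies beside Stat5a, had no shared call but a private 4-base intronic deletion in tumour 31 at 22.22%. The 2 Stat3 variants of the 3' UTR occupy the adjacent positions 100888676 and 100888677 and had identical read shares in 4 of 4 carriers, 58.62%, 51.02%, 48% and 53.13%. In the whole data set 190 adjacent pairs of shared SNVs had the same carriers, and the read shares were identical in all 190.

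Nf1, the gene of the RAS brake neurofibromin, held 5 variants in 18 tumours, none of them protein-altering. An SNV in a splice region, 7 bases from the exon at 79547257 of chromosome 11, and an intronic SNV 50 bases further on were carried by tumours 1, 2, 3, 8 and 11. The splice region variant had read shares of 55.32%, 56.10%, 30.77%, 50.00% and 50.94% in these tumours, and the intronic one 53.57%, 48.48%, 35.48%, 60.87% and 37.14%. Tumour 3 was the lowest of the 5 for both. Its 618 shared SNVs on chromosome 11 had a median of 29.86%, whereas the medians of the other 4 tumours lay between 47.37 and 50.24%. Both variants belonged to a group of 27 with identical carriers between 69882322 and 82102140, among 53 shared variants in that stretch. Of the 27, 3 were protein-altering, in other genes. Of the 5 carriers, 3 (tumours 1, 2 and 8) also carried the Stat3 variants 21.3 Mb away.

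The other 3 variants of Nf1 and 3 of the 4 variants of Birc3 were length changes, shown here because the alleles differ between tumours. The first line gives 21 reference bases of the Birc3 intron from 7854190 to 7854210 of chromosome 9 (mm10, plus strand), as the table writes them, and the next 3 lines mark in capitals the bases that each allele lacks.
Birc3 reference: aaaagaaagaaagaaagaaag
Birc3 lacking 4 bases: aAAAGaaagaaagaaagaaag
Birc3 lacking 16 bases: aAAAGAAAGAAAGAAAGaaag
Birc3 lacking 20 bases: aAAAGAAAGAAAGAAAGAAAG
The next lines give, on the same strand, the alternate alleles of Nf1 at 79504162 and 79504171 of chromosome 11, with the added bases in capitals.
Nf1 with 9 bases added: cTTTTTCTTT
Nf1 with 6 bases added: tTTTTTC

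Birc3 encodes cIAP2, a ubiquitin ligase that restrains the NF-kB inducing kinase, and is deleted in part of human myelomas. The shortened alleles lack whole units of 4 bases, and 13 tumours carried one of them, none with more than 1. The allele 4 units shorter was called in 9 tumours (10, 13, 20, 21, 24, 38, 39, 40 and 43) with read shares of 17.65 to 60.00% and a median of 33.33%. The allele 5 units shorter was called in tumours 28, 33 and 35 at 45.45%, 55.56% and 38.71%. The allele 1 unit shorter was private to tumour 29 at 53.85%. The deletions lie 157 to 173 bases into the intron, and the fourth Birc3 variant was an intronic SNV 91 bases from the exon, private to tumour 3 at 55.56%. For the 4-unit allele the most similar carriers were those of variants in Crebl2, Gm1110 and Nr5a2, with Jaccard indices of 0.545, 0.538 and 0.471.

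The 9-base Nf1 insertion was called in 12 tumours, at 100% of reads in 11 of them and 83.33% in tumour 33. It lies 28285 bases from the nearest Nf1 exon but 80 bases beyond the higher coordinate of Omg, a gene nested in that intron (79500982 to 79504082). A 6-base insertion 9 bases further on was called in tumours 41 and 42 at 100% and 33.33%, and an insertion of 11 bases elsewhere in Nf1 was private to tumour 12 at 23.08%. The most similar carriers were those of 3 neighbouring intronic variants of Ppp1r12b on chromosome 1, with a Jaccard index of 0.421. High read shares were also seen for intronic deletions of 1 base in Cbl, the gene of a ubiquitin ligase of activated receptors, at 90%, 72.73%, 60% and 60% in tumours 27, 29, 43 and 45. A 5-base intronic deletion of the JAK phosphatase gene Ptpn2 stood at 100%, 100%, 100% and 84.62% in tumours 6, 9, 14 and 16. The last shared variant, an intronic SNV of the p105 and p50 gene Nfkb1, was carried by tumours 6 and 8 at 54.55% and 78.57%.

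**Figure D3:**
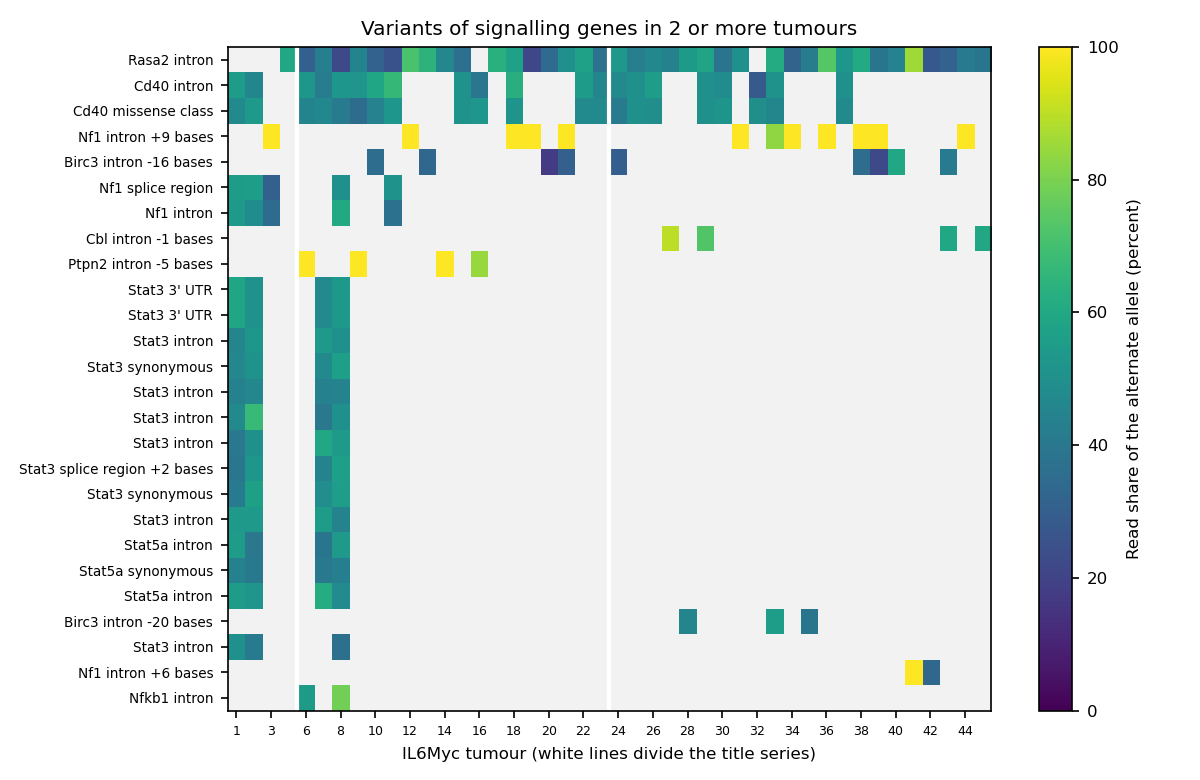
Read share, in percent, of each of the 26 shared variants of signalling genes (rows, ordered by number of carriers) in each of the 44 tumours (columns, divided into 3 title series by white lines), with no call in light grey. The Stat3 and Stat5a rows fill the same 4 columns near 50%, both upper Cd40 rows share 21 columns, and the 9-base Nf1 row is at 100% in 11 of its 12 columns.

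Carrier numbers were compared between the 18 tumours titled 1501 to 1592 and the 22 titled 1601 to 1628, as the largest series in the titles. Over the table, 2719 of 5998 variants tested (45.3%) differed by two-sided Fisher's exact test with Benjamini-Hochberg adjustment, 2672 of them (44.5%) being more frequent in the first series and 47 (0.784%) in the second. Linked variants share carriers and are not independent. Of the members' variants 4 had enough carriers to be tested, and 0 passed, at an adjusted or at an unadjusted p below 0.05. The Cd40 variants were carried by 11 of 18 and 8 of 22 tumours (61.1% and 36.4%, Fisher's exact test, adjusted p = 0.319). The 9-base Nf1 insertion was carried by 4 and 7 tumours (adjusted p = 0.834) and the 4-unit Birc3 deletion by 4 and 5 (adjusted p = 1).

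Each tumour had at least 1 call in a signalling gene. The fewest, 1, were in tumour 17 and the most, 22, in tumour 2, and the median was 3. Tumours titled 1501 to 1592 had 5.00 ± 4.91 calls (SD, n = 18) and those titled 1601 to 1628 had 2.91 ± 0.921 (SD, n = 22), a difference of 2.09 calls (two-sided permutation test with 100000 resamples, p = 0.0477). Tumours 7 and 8, which carry the Stat3 and Stat5a variants, had 16 and 20 calls, and the other 16 tumours of their series had 1 to 5. Without those 2 tumours the first series had a mean of 3.38, and the difference was 0.466 calls (permutation p = 0.241). With all tumours kept but Stat3 left out, it was 0.970 (permutation p = 0.0431), and the Stat5a calls of tumours 7 and 8 still counted. As a share of all calls of a tumour, signalling genes made up 0.112% ± 0.0882 and 0.116% ± 0.0343 in the 2 series (permutation p = 0.894). The median number of all calls per tumour was 4499.5 in the first series and 2329.5 in the second.

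**Figure D4:**
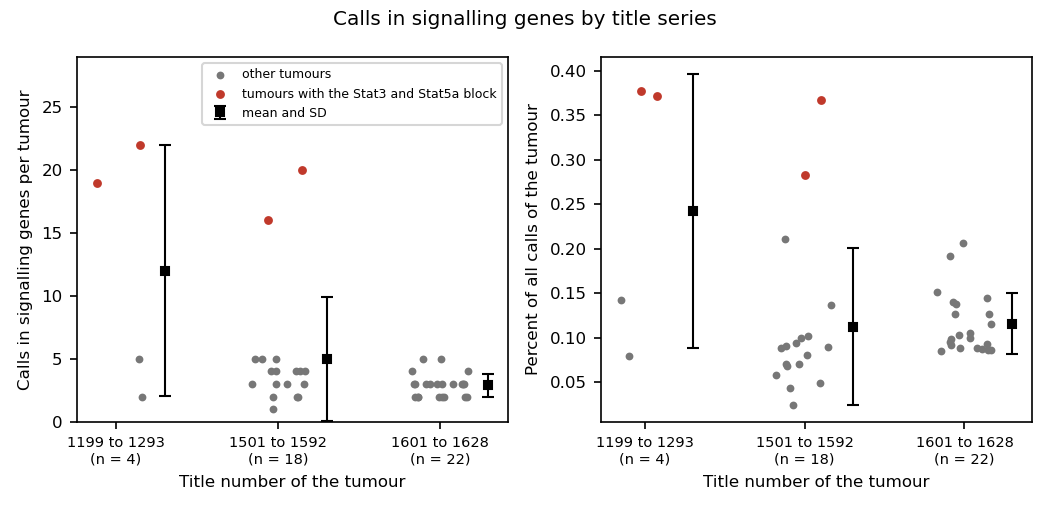
Calls in signalling genes per tumour, as a number (left) and as a percent of all calls of the tumour (right), by title series, with the mean and SD of each series as a square and bar. The 4 tumours with the Stat3 and Stat5a variants (red) have 16 to 22 calls, while all other tumours have 5 or fewer.

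A further 82 genes of these pathways, listed from general knowledge, were read with older symbols counted, as in the 38.2% of members with a call. Calls were found in 36 of them (43.9%, against 29.7% of all protein-coding genes), and 7 (8.54%, against 7.78%) had a protein-altering call. The carrier number was highest for Stat2, which encodes a transcription factor of the interferon response. In 11 tumours (1, 2, 12, 13, 16, 18, 30, 36, 39, 40 and 41) it had the in-frame change p.Leu766_Glu768delinsGln at 100% of reads in each, together with the in-frame deletion p.Pro769_Leu798del at 92.5 to 100%. Tumour 39, with the private Stat3 missense variant, and tumour 41, with the Traf3 variant, were among them. A private Stat2 variant, p.Asp568Tyr, was called in tumour 16 at 7.69%.

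The other 6 genes had 1 protein-altering variant each. Lifr, the gene of the leukaemia inhibitory factor receptor, carried p.Ser882Thr in tumours 1 and 2 at 48.53 and 60.47%. Chuk, the gene of an IkB kinase subunit, carried p.Thr463Arg in 3 tumours at 5.88 to 9.62%. The receptor genes Fgfr1 and Fgfr2 carried a frameshift at 8.33% in tumour 45 and p.Glu56Asp at 40% in tumour 36. Tab3, whose product links receptor signals to the IkB kinase, carried p.Tyr84His in tumour 18 at 20.43%. A Csf3r variant in tumour 45 at 6.06% is annotated as missense without a written protein change.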

How the data were processed

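Exomes of 44 tumours were read from 1 variant table. The authors deposited, per tumour, the percent of reads with the alternate allele, and per variant a carrier count, which equalled the number of filled cells. The submitters' processing notes name GATK and mm10; for other callers, filters and annotation releases the sources used here give no name. Of 25823 rows, 199 with several alleles were left out, none of them of a member. Protein-altering covers missense, stop, start, frameshift, in-frame and essential splice annotations; private means called in 1 tumour. The members and the gene lists were chosen with earlier results of these data known. Named with values were members with a protein-altering variant, with a variant in at least 6 tumours or with no call; remaining members complete the account. The 3 most similar variants of other genes were taken by Jaccard index of carriers. Python 3.11.15 with pandas 2.3.3 and SciPy 1.17.1 gave exact Clopper-Pearson 95% intervals, permutation tests and Fisher's exact tests (at least 5 carriers and 5 non-carriers); intervals cover counting error only. Permutation p-values set a difference against the spread between tumours. All p-values treat tumours as independent units, although groups of tumours carry the same runs of linked variants. A simulation of 5998 variants held 100 with carrier shares of 90 against 10 percent, 100 with 70 against 30 percent and 5798 unchanged. Of these, 99%, 12% and 0.0517% were called, in that order. In the data 2719 of 5998 variants were called, a far larger part than was changed in the simulation, and Benjamini-Hochberg adjustment depends on that part. The simulated rates therefore do not give the power of the test of the 4 member variants. Gene symbols and spans came from RefSeq GRCm38.p6, and the printed bases from the deposited table. Alternatives covered read share minima, SNVs only, rows with several alleles, annotation rules and left-out tumours.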

Additional observations from a re-analysis of the deposited data

How the results depend on the processing

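The 20 members with any call became 18 and 14 at read share minima of 10 and 20%, 16 with SNVs only, 16 without the 4 tumours titled 1199 to 1293 and 21 with older symbols, an alternative chosen after seeing the data. At a minimum of 20% the members with a protein-altering call fell from 6 to 2 and private member variants from 20 to 12. Without the 4 early-titled tumours private variants numbered 13. Members with a protein-altering call numbered 5 where a written protein change was required, which Cd40 lacks. The difference of 2.09 calls between the title series was 2.06 (permutation p = 0.0628) at a minimum of 20%, 0.466 (p = 0.241) without the Stat3 and Stat5a carriers (chosen after seeing the data), and -0.00313 percentage points (p = 0.894), the reverse direction, as a share of the calls of a tumour. The difference in calls stayed past the threshold at 0.970 (permutation p = 0.0431) without Stat3, the gene with most calls. That alternative kept the Stat5a calls of the same carriers. With the tumours titled 1199 to 1293 added to the first series, the difference was 3.36 (permutation p = 0.0117). The median read share of private member SNVs, 15.97%, was 24.01% at a minimum of 10% and 25.825% with indels. Of the alternative values of the main results, 36 were classed as the same, 3 moved, 2 lost the threshold and 1 reversed. For single genes 23 were classed as the same and 7 moved. Values classed as the same include the medians of 24.01 and 25.825%, so the class does not mean a small change. It also includes the protein-altering share of member variants, which fell from 13.04 to 5.26% at a minimum of 20%. The count of member variants differing between series was 0 under each of the 3 alternatives run. No paired analysis was possible because the labels hold 1 group of tumours and no numbers that pair them. Without read depth, precision of single read shares and coverage of genes without calls are unknown, and calls of a few percent, such as Rela, cannot be weighed by their number of reads.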
